A study of Mus musculus with 16 samples.

Results

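The transcript table of mouse left ventricle (LV) was searched for small nucleolar RNAs, microRNA precursors, small nuclear RNAs and the long transcripts that host them. Members were chosen by symbol alone, as every row whose name begins with Snord, Snora, Scarna, Rnu, Mir followed by a digit, Mirlet or Snhg, together with Gas5. The rule found 157 of 11811 rows. Of these, 140 were small RNA rows (49 Snord, 32 Snora, 7 Scarna, 7 Rnu and 45 Mir) and 17 were host rows (12 Snhg, Gas5 and 4 miRNA host genes whose symbol ends in hg).

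LV RNA was compared between 8 TGAC8 mice and 8 WT mice, all males on C57BL/6 and 3 months old, with 1 library per mouse. TGAC8 mice carry a human ADCY8 cDNA, an adenylyl cyclase, under the murine α-myosin heavy chain promoter, so the transgene is driven in cardiomyocytes, while the LV samples hold all cell types of the wall. Levels are FPKM, that is fragment counts divided by transcript length and by library size, as the authors deposited them. Human ADCY8 was between 411 and 602 FPKM in every TGAC8 library, and WT libraries were at 0 except for 0.345 FPKM in library 2. The log2 difference was 12.02 (2-sided exact permutation test over libraries, p = 0.000155, which is the lower limit of this design).

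Box C/D snoRNAs (Snord) carry proteins that methylate riboses of ribosomal RNA, and box H/ACA snoRNAs (Snora) guide the conversion of uridine to pseudouridine. Most vertebrate snoRNAs lie in introns of longer genes and are cut from the spliced-out intron, so that 1 primary transcript gives both a spliced host RNA and a snoRNA. Small Cajal body RNAs (Scarna) guide the same modifications on spliceosomal RNAs, Rnu rows hold spliceosomal U RNAs, U3 and Rnu73b, which is annotated as a snoRNA with both C/D boxes, and Mir rows hold the hairpins from which microRNAs are cut.

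The sequences of 4 box C/D RNAs that were lower in TGAC8 are shown first, because all of these results turn on RNAs of this size and build. They are GENCODE vM21 transcripts on mm10, 5′ to 3′, with box C (TGATGA, searched in the first 20 bases) and box D (CTGA, searched in the last 16 bases) in capitals where these letters were found on the RNA strand.
Snord87: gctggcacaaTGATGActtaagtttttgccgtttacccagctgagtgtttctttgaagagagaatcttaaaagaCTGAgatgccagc
Snord100: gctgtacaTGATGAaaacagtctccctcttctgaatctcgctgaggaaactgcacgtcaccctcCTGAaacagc
Snord104: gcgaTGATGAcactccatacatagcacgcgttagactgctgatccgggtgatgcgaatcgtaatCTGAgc
Snord1b: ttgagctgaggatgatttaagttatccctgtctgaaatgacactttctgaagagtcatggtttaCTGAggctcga

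These 4 RNAs are 70 to 87 bases long. Snord87 lies at chr1:9942463-9942549 on the minus strand, in an intron of Snhg6. Snord100 (chr10:23785750-23785823, minus strand) lies in an intron of Rps12. Snord1b (chr11:116674148-116674222, plus strand) lies in an intron of the noncoding gene 1810032O08Rik, and Snord104 (chr11:106500993-106501062, plus strand) overlaps no annotated host. All 95 Snord, Snora, Scarna and Rnu rows matched a GENCODE sequence. Both boxes were found in 67.3% of the 49 Snord rows, close to 69.4% of the 98 GENCODE Snord transcripts. They were found in 20.3% of all 1507 annotated snoRNA transcripts, which hold other classes too.

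Of the H/ACA RNAs that were lower, 4 are shown the same way. The trinucleotide ACA, searched in the last 7 bases, is in capitals.
Snora17: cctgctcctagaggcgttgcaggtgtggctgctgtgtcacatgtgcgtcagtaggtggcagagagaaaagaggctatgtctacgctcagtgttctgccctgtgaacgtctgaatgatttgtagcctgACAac
Snora16a: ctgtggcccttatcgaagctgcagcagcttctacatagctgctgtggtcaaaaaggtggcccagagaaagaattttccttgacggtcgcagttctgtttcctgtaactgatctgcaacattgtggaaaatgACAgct
Snora52: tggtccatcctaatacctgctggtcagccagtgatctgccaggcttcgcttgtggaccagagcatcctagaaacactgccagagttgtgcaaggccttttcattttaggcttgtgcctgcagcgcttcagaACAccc
Snora78: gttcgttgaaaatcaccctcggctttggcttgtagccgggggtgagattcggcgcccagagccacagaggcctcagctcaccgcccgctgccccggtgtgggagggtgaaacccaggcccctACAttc

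The ACA was found in 93.8% of the 32 Snora rows, close to 95.2% of the 42 GENCODE Snora transcripts. It was found in 6.12% of the Snord rows and in 46% of all annotated snoRNA transcripts. Snora16a lies in an intron of Snhg12 (chr4:132309464-132309600), Snora52 in an intron of Rplp2 (chr7:141448803-141448939) and Snora78 in an intron of Snhg9 (chr17:24719676-24719803). Snora17 (chr2:26639190-26639321) had no host row in the table.

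Small RNA rows were lower in TGAC8 where they differed, and no small RNA row was called higher. Calls are from limma on log2(FPKM + 0.1) over the 11544 rows whose mean reached 0.5 FPKM, at a Benjamini-Hochberg adjusted p below 0.05. Of 139 small RNA rows tested, 14 were called lower, 10.1%, beside 4.65% of all rows tested. None, 0, were called higher, beside 20.9% of all rows tested. Among rows with a mean of 10 to 965 FPKM, 7.55% of small RNA rows were called lower, beside 9.17% of rows outside the rule. At this level the share called lower thus does not by itself set small RNA rows apart. Nor can it show that they are alike, because their median SE there was 1.53, beside 0.062. The range held 8 of the 14 rows called lower. In it 0 small RNA rows were called higher, beside 24.9% of rows outside the rule. Fold changes lay below 0 in 68 of these 106 small RNA rows and in 926 of the 2727 others. At an unadjusted limma p under 0.05, 25 small RNA rows were lower and 4 higher, beside 6.55% and 31% of all rows tested, and an exact rank-sum test adjusted over all rows called 9 lower, beside 4.11% of all rows, and 0 higher, beside 18.5%. Of the 17 host rows, 3 were called higher, 17.6%, and 0 lower, with 4 and 2 at an unadjusted p under 0.05 and 2 and 0 by the rank-sum test. Over both directions 17 of 156 members tested were called, beside 25.6% of all rows tested. Without WT library 2, the library with a trace of transgene reads, 9 small RNA rows were called lower, beside 4.11% of all rows tested, and 7 of these were among the 14. In that fit Snora2b was called higher, beside 18.5% of all rows tested. It was at 0 in 3 TGAC8 and 7 WT libraries, and its 1 WT value above 0, 18.8 FPKM, was in WT library 2. Leaving out that library thus set all its WT values to 0.

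The 14 rows were Snord87, Snord55, Snord100, Snord104, Snord1b, Snord7, Snora17, Snora16a, Snora52, Snora78, Snora74a, Snora3, Rnu5g and Mir1291. The median log2 fold change, TGAC8 over WT, was -0.33 for Snord rows, -0.34 for Snora rows, -0.27 for Scarna rows and -0.26 for Rnu rows. It was 0.47 for Mir rows, 0.28 for host rows and 0.12 for all rows tested. Fold changes lay below 0 in 38 of 49 Snord rows, 24 of 32 Snora rows, 6 of 7 Scarna rows and 5 of 7 Rnu rows, beside 26.6% of all rows tested.

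All rows together shifted by 0.12 on the deposited scale. After geometric scaling, which sets every library to the same median ratio against a geometric-mean reference, the median of all rows was 0.01, 48.5% of all rows lay below 0, and 10.8% of all rows tested were called lower and 9.74% higher. On that scale 16 small RNA rows were called lower and 0 higher, 13 of them among the 14. The 16 are 11.5% of the rows tested, close to the 10.8% of all rows, so on that scale the share called lower does not by itself set them apart. The shares rest on unlike precision, as the median SE on the deposited scale was 1.23 for small RNA rows and 0.101 for all rows. At a mean of 10 to 965 FPKM it was 7.55% of small RNA rows, beside 24.9% of rows outside the rule. The class medians on that scale were -0.45 for Snord and -0.46 for Snora. Under quantile normalization, which forces the same distribution on every library, 2 small RNA rows, Snora17 and Rnu5g, were called lower, beside 9.14% of all rows tested.

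**Figure D1:**
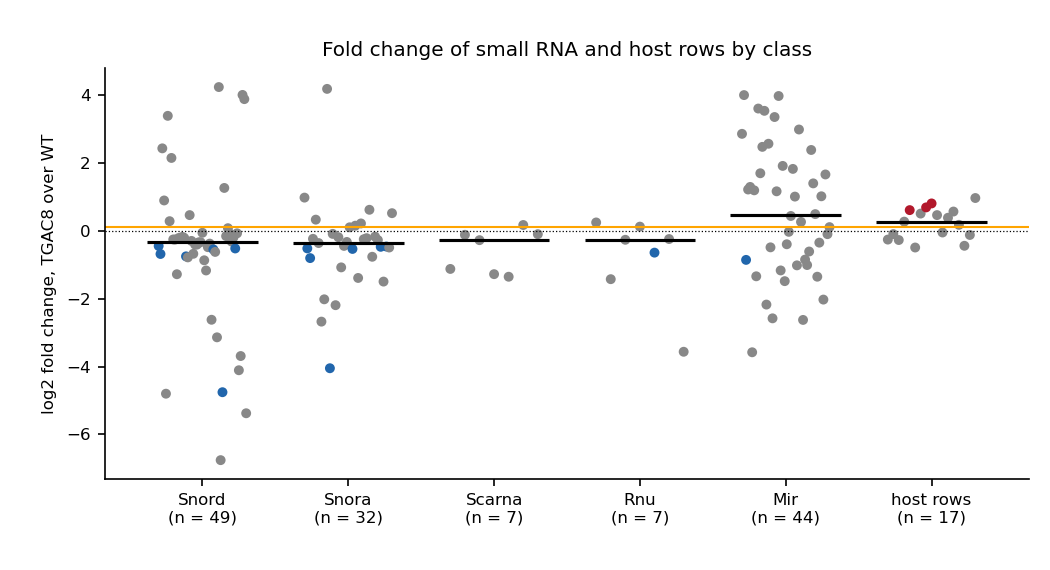
Log2 fold change (TGAC8 over WT, y axis) of each tested row by class (x axis). Blue points were called lower, red points higher and grey points neither, black bars are class medians and the orange line is the median of all rows, 0.12. All 14 blue points are small RNA rows and all 3 red points are host rows.

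Added up over the class, Snord rows took a large part of the table's summed FPKM, and most TGAC8 sums lay under the WT range. FPKM gives a fragment more weight the shorter the RNA, so this is not a share of fragments or of RNA. The Snord fragments estimated below are a very small part of the reads per library that the paper reports. The summed FPKM of the 49 Snord rows was lowest at 57015, with a median of 65095 and a highest value of 82334, in TGAC8. In WT the lowest sum was 69914, the median 85783 and the highest 105552. The TGAC8 mean was 76.4% of the WT mean, and TGAC8 libraries 3, 4 and 5 were the ones that reached into the WT range.

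Snord rows made up 16.9 to 22% of all FPKM in TGAC8 libraries and 19.6 to 25.9% in WT. Summed Snora FPKM ran from 3641 to 6496 in TGAC8 and from 5443 to 7225 in WT, the TGAC8 mean being 78.7% of the WT mean. For Rnu rows the TGAC8 mean was 83.5% of the WT mean, and for Mir rows it was 87.3%. Summed FPKM of the 17 host rows ran from 47.9 to 117 in TGAC8 and from 49.8 to 94.5 in WT, so the WT range lay inside that of TGAC8. In bulk tissue fewer cells of a type and less RNA per cell cannot be told apart.

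Markers of other cell types moved with genotype in the same libraries. All 8 fibroblast markers and 8 of 9 macrophage and leukocyte markers were called higher in TGAC8, with summed levels of 190 to 345 FPKM against 153 to 178 for fibroblasts and of 122 to 184 against 88.6 to 121 for leukocytes. Of 8 cardiomyocyte markers, 3 were called lower and 1 higher, with sums of 19006 to 23525 in TGAC8 and 23776 to 25966 in WT. Over all rows tested, 20.9% were called higher and 4.65% lower. No marker list was at 0 in any library, limma called 0 of 9 endothelial markers (0 also at an unadjusted p under 0.05 and by the rank-sum test), and 2 of 7 smooth muscle and pericyte markers were called higher. The part of these shifts in the snoRNA levels was not tested.

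How much 1 sequenced fragment is worth depends steeply on length in these rows, and it sets how firmly each row can be read. In 71 of the 140 small RNA rows the FPKM values were whole multiples of 1 step per library, within a tolerance of 0.05 of a step, with a median largest deviation of 0.00106. In WT library 8 that step was 723 FPKM for an RNA annotated at 48 bases, 124 FPKM at 68 bases, 28.7 FPKM at 98 bases and 4.37 FPKM at 164 bases. The step thus fell more steeply with length than division by annotated length gives. FPKM of small RNA rows of different length can therefore not be ranked as RNA amounts. The step differed between libraries only from 0.924 to 1.18 times that of WT library 8, from 0.937 to 1.18 in TGAC8 and from 0.924 to 1.1 in WT.

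Steps were interpolated across lengths to estimate fragments for 132 rows. Rows of 1 length could differ in step, as Scarna3a at 14.3 FPKM and Snora65 at 7.17 FPKM, both annotated at 118 bases. The largest step at a length was taken as 1 fragment. Of these, 57 had under 2 fragments per library on average, 97 had under 10 and 14 had 50 or more. Counted as fragments at the depth of WT library 8, Snord rows summed to 1600 to 2419 in TGAC8 (median 1840) and 2014 to 2545 in WT (median 2316). On this weighting the TGAC8 mean was 82.8% of the WT mean for the 48 Snord rows with an estimate and 77.1% for the 28 such Snora rows. Rows annotated at more than 164 bases, Snora74a among them, had no estimate and are not in these sums. These estimates carry counting error, and no interval is given because steps were interpolated.

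Zeros and spread differed widely between the classes. Of 720 Mir values, 41.1% were exactly 0, and a further 76 were above 0 but under 0.001 FPKM. The share at 0 was 14.9% in Snord rows, 12.7% in Snora rows, 13.4% in Scarna rows and 2.68% in Rnu rows. Host rows had 1 value at 0 among 272, in Snhg9, and rows outside the rule had 0.441% at 0.

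Zeros were divided almost evenly between genotypes, with 245 small RNA values at 0 in TGAC8 and 251 in WT. No row differed by more than 4 libraries in its number of zeros, and Mir680-2 was at 0 in all 16 libraries. The median coefficient of variation (SD over mean) across WT libraries was 45.8% for Snord, 49.7% for Snora, 160% for Mir and 23.3% for host rows. It was 13.3% for rows outside the rule. In TGAC8 the same medians were 51.4%, 49.3%, 148%, 31.1% and 14.5%.

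**Figure D2:**
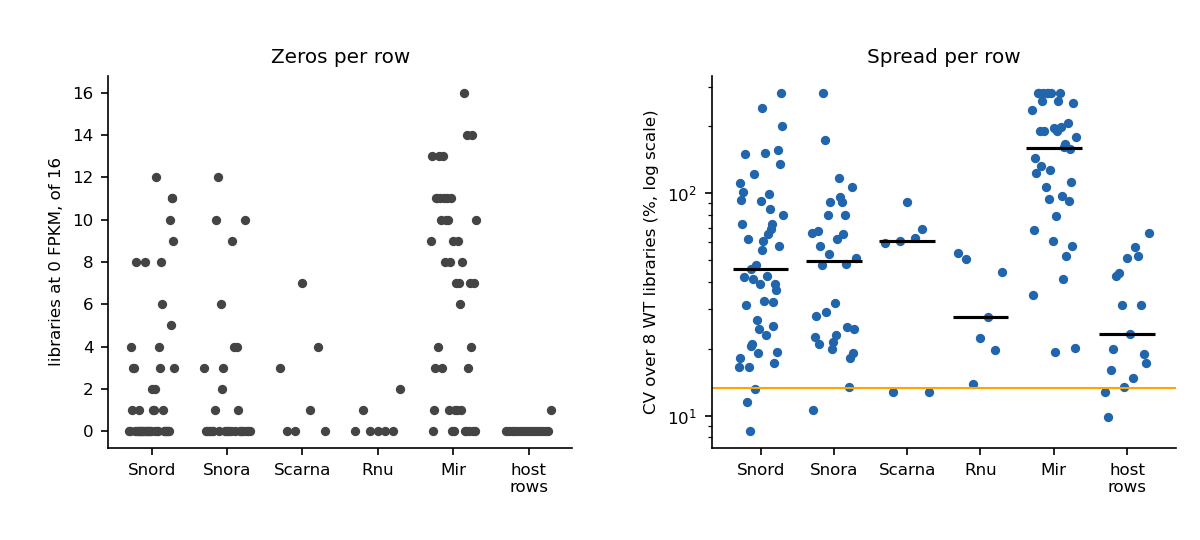
Left, number of the 16 libraries at 0 FPKM for each row, by class. Right, coefficient of variation over the 8 WT libraries (%, log scale), with black bars at class medians and an orange line at 13.3%, the median of rows outside the rule. Mir rows sit highest in both, and 16 of 17 host rows have no zero.

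Most of the calls were in rows with a value in every library. Of the 58 small RNA rows above 0.001 FPKM in all 16 libraries, 49 had a fold change below 0, beside 26.6% of all rows tested. Their median was -0.27, and 12 were called lower, 20.7%, beside 4.65% of all rows tested. Rows outside the rule with a mean of 10 to 965 FPKM gave 9.17%. On the geometric scale 15 of the 58 were called lower, 25.9%, close to the 24.9% of those rows outside the rule. The sets are not matched. The median of mean FPKM was 387 in the 58 rows and 20.8 in the others, and the median SE on the deposited scale was 0.195 and 0.062. The other 81 tested small RNA rows had a median of -0.18, ran from -6.76 to 4.25, and gave 2 calls. Snord68 at -6.76 and Snord66 at 4.25 mark these ends, and neither was called (limma adjusted p = 0.0961 and 0.171). Snord68 was at 0 in 6 TGAC8 and 2 WT libraries and had about 1.06 fragments per library, while Snord66 had about 2.81 and was at 0 in 3 WT libraries only.

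Snord87 had the highest mean FPKM of the class, with about 121 fragments per library. Its FPKM was lowest at 7005, with a median of 8468 and a highest value of 11686, in TGAC8, and in WT the lowest was 9905, the median 11899 and the highest 17114. All 8 TGAC8 libraries lay under the WT median, but the groups overlapped. Snord87 thus had a log2 fold change of -0.52 (SE 0.125, limma adjusted p = 0.00612).

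Snord100, resident of the ribosomal protein gene Rps12, ran from 4807 to 7244 FPKM in TGAC8 with a median of 5924. The WT values ran from 5987 to 9814 with a median of 8140. Every TGAC8 library was under the WT median. Its log2 fold change was -0.44 (SE 0.111, limma adjusted p = 0.00765), on about 56.1 fragments per library.

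Snord55 and Snord104 were at similar levels. Snord55 had a lowest value of 2062, a median of 3876 and a highest value of 4350 FPKM in TGAC8, against 2850, 5758 and 6413 in WT. Snord104 had a lowest value of 1675, a median of 3567 and a highest value of 5735 FPKM in TGAC8, against 3853, 5759 and 6377 in WT. In both, all 8 TGAC8 values were under the WT median. Their log2 fold changes were -0.54 (SE 0.169, limma adjusted p = 0.0257) and -0.68 (SE 0.202, adjusted p = 0.0201).

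Snord1b was lower on fewer fragments, about 12.6 per library. Values ran from 222 to 1303 FPKM in TGAC8, median 749, and from 890 to 1560 in WT, median 1093, with 7 of 8 TGAC8 libraries under the WT median. Its fitted log2 fold change was -0.75 (SE 0.26, limma adjusted p = 0.0429), and it was not called without WT library 2 (adjusted p = 0.0667).

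Of the 3 Snord rows with the highest mean FPKM, Snord34 in Rpl13a was the one not called. It ran from 4830 to 10151 FPKM in TGAC8 (median 6468) and from 5048 to 11181 in WT (median 8511), with a log2 fold change of -0.33 (SE 0.18, limma adjusted p = 0.186). The groups covered nearly the same range.

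Among the H/ACA RNAs, Snora17 showed the clearest difference. Its FPKM was lowest at 67.3, with a median of 149 and a highest value of 248, in TGAC8, and 176, 260 and 359 in WT. All 8 TGAC8 libraries were under the WT median. The log2 fold change was -0.80 (SE 0.205, limma adjusted p = 0.00864), and the call held on the geometric scale, under quantile normalization and without WT library 2 (adjusted p = 0.00566, 0.0225 and 0.0152).

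Snora52, resident of Rplp2, ran from 118 to 321 FPKM in TGAC8 (median 229) and from 218 to 458 in WT (median 318). Snora78, resident of Snhg9, ran from 104 to 222 (median 152) against 138 to 281 (median 221). In each, 7 of 8 TGAC8 values lay under the WT median and the ranges overlapped. The log2 fold changes were -0.53 (SE 0.178, limma adjusted p = 0.037) and -0.46 (SE 0.148, adjusted p = 0.0313).

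Snora74a and Snora16a were the most abundant H/ACA rows by FPKM, both on Snhg hosts. Snora74a ran from 603 to 1325 FPKM in TGAC8 (median 1028) and from 1046 to 1750 in WT (median 1360). Snora16a ran from 312 to 929 in TGAC8 (median 515) and from 616 to 850 in WT (median 791). The highest Snora16a value was thus a TGAC8 library, and its SD was 216 in TGAC8 and 81.9 in WT.

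Their log2 fold changes were -0.47 (SE 0.152, limma adjusted p = 0.0323) for Snora74a and -0.51 (SE 0.185, adjusted p = 0.0499) for Snora16a. Neither was called without WT library 2 (adjusted p = 0.0646 and 0.0812), nor was Snora52 (adjusted p = 0.0516). Snora21, next in mean FPKM and resident of Rpl23, had medians of 402 and 470 FPKM and was not called (log2 fold change -0.23, adjusted p = 0.379).

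**Figure D3:**
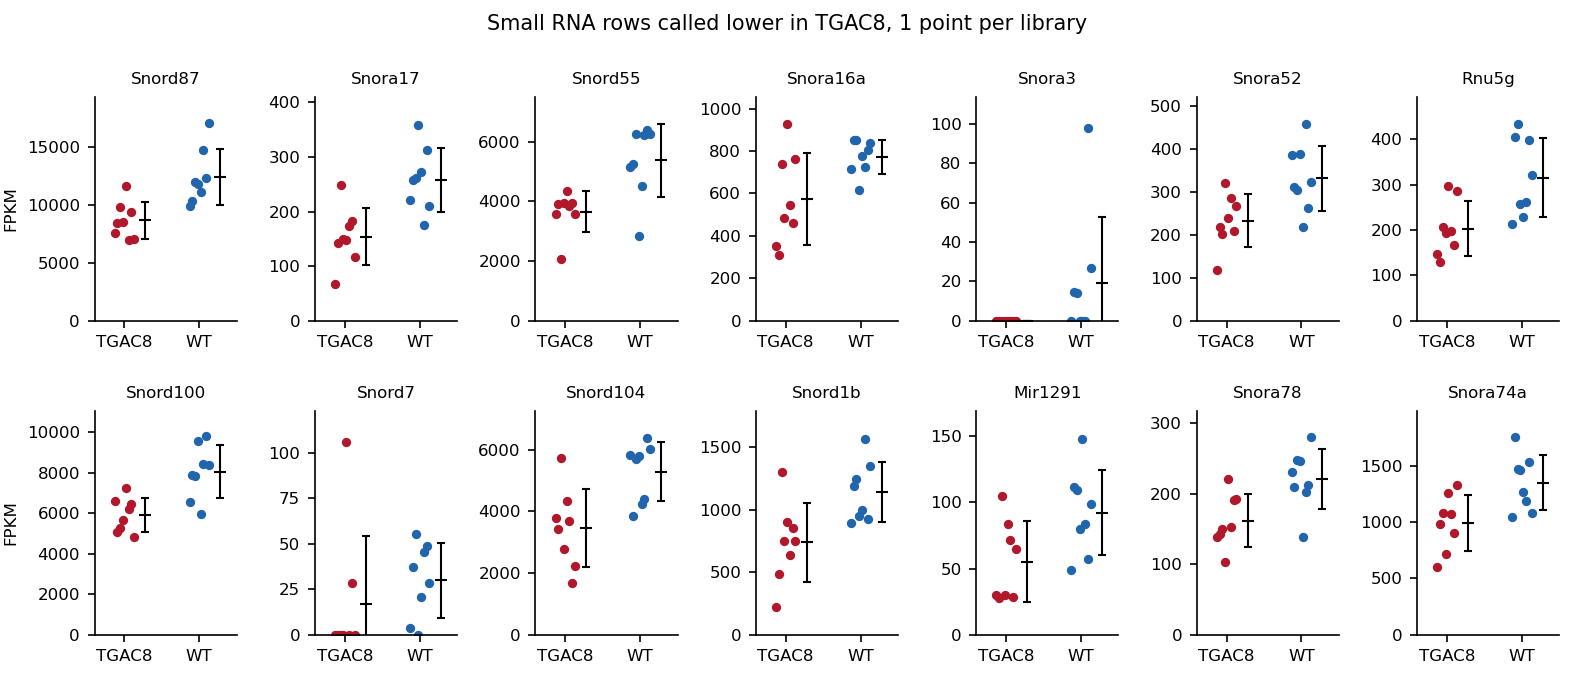
FPKM (y axis, linear from 0) of the 14 small RNA rows called lower, 1 point per library, TGAC8 in red and WT in blue, with the mean and SD to the right of each group (bars cut at 0). Snord87, Snord100, Snord55, Snord104 and Snora17 have all 8 TGAC8 points under the WT median, and Snora3 is at 0 in all TGAC8 libraries.

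Snora3 and Snord7 had the largest fold changes of the called rows and the fewest fragments. Snora3, resident of Rpl27a, was at 0 in all 8 TGAC8 and in 4 WT libraries, and its other 4 WT values ended at 98 FPKM in 1 library. Snord7 was at 0 in 5 TGAC8 libraries and 1 WT library, yet its highest value, 106 FPKM, was in TGAC8. With about 0.719 and 0.768 fragments per library, their fitted log2 fold changes of -4.05 and -4.76 (SE 1.41 and 1.67, limma adjusted p = 0.0427 and 0.0443) depend on the pseudocount and are no measure of size. Interpolated from rows of other lengths, a single fragment in WT library 8 was worth 13.5 FPKM in Snora3 and 31 in Snord7. The values of Snora3 itself were multiples of a smaller step, 6.75 FPKM, and no step was found in Snord7. At a pseudocount of 10 neither was called, beside 4.61% of all rows called lower.

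In the spliceosomal class, Rnu5g, a U5 RNA, was called lower. Its FPKM was lowest at 129, with a median of 197 and a highest value of 296, in TGAC8, against 213, 291 and 434 in WT, and 7 of 8 TGAC8 values were under the WT median. The log2 fold change was -0.64 (SE 0.187, limma adjusted p = 0.0188), and the call held on the geometric scale and without WT library 2 (adjusted p = 0.007 and 0.0387). Rnu73b, the snoRNA among the Rnu rows, was not called by limma (log2 fold change -3.56, adjusted p = 0.12). The rank-sum test called it lower (adjusted p = 0.046). It had 12 fragments in TGAC8 and 29 in WT, was at 0 in 2 TGAC8 libraries, and all 8 TGAC8 values were under the WT median.

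The 3 Rnu rows with the highest FPKM were not called. Rnu1a1, a U1 RNA, had medians of 1758 in TGAC8 and 1989 in WT (log2 fold change -0.26, limma adjusted p = 0.166). Rnu6, the U6 RNA, had medians of 281 and 361 (log2 fold change -0.24, adjusted p = 0.234). Rnu3a, the U3 RNA that acts in cleavage of the ribosomal precursor, had medians of 603 and 487 (log2 fold change 0.13, adjusted p = 0.64), so it lay on the other side of 0. U1, U5, U6 and U3 RNAs are multicopy in the mouse, and the sources used here do not say how reads were divided between copies.

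Small Cajal body RNAs gave 0 calls by limma, 0 at an unadjusted p under 0.05 and 0 by the rank-sum test. Scarna17 had a median of 1485 FPKM in TGAC8 and 1797 in WT (log2 fold change -0.27, limma adjusted p = 0.624), with values from 663 to 2843 and from 1008 to 4667. Scarna10 and Scarna2 had 3 and 7 libraries at 0, about 1.75 and 0.75 fragments per library, and adjusted p of 0.728 and 0.764.

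MicroRNA rows are annotated at the length of the hairpin, not of the mature microRNA, and most held too few fragments to compare. To show what the hairpins encode, mature sequences are given with the seed (bases 2 to 8) in capitals, from RefSeq on GRCm38.p6. Mature entries were matched for 41 of 45 Mir rows. They are shown for Mir1291, the called row, for Mir677, which is called by ranks alone, for Mir126a, known from endothelium, and Mir22, known from heart muscle, and for Mir29b-2 and Mir29c, the rows that share a seed.
mmu-miR-1291: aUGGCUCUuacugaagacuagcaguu
mmu-miR-677-5p: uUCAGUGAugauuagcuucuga
mmu-miR-126a-3p: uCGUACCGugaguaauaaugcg
mmu-miR-22-3p: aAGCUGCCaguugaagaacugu
mmu-miR-29b-3p: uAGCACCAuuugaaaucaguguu
mmu-miR-29c-3p: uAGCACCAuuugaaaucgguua

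AGCACCA, shared by miR-29b and miR-29c, was the only seed found in more than 1 of the matched rows, among 51 seeds. Mir29b-2 was at 0 in 5 TGAC8 and 6 WT libraries and Mir29c in 4 and 4, so their levels could not be compared at this depth. Mir126a, in an intron of the endothelial gene Egfl7, was at 0 in all 8 WT libraries and in 5 TGAC8 libraries. Its signal was 6 fragments in 3 TGAC8 libraries, and it was not called (limma adjusted p = 0.106). Its host Egfl7 was not called (log2 fold change 0.17, SE 0.0889, limma adjusted p = 0.177).

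Mir1291 was the 1 Mir row called. Its FPKM was lowest at 27.7, with a median of 47.6 and a highest value of 105, in TGAC8, and 48.9, 91.1 and 148 in WT. The groups overlapped, 7 of 8 TGAC8 libraries were under the WT median, and the row rests on about 4.9 fragments per library. The log2 fold change was -0.85 (SE 0.307, limma adjusted p = 0.0498), and the call was lost without WT library 2 (adjusted p = 0.0852). The hairpin overlaps Snora34 in an intron of Kansl2, so reads of the Mir1291 and Snora34 rows cannot be told apart where they overlap, and Snora34 itself was not called (adjusted p = 0.641).

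The Mir rows of highest FPKM were Mir8114, Mir6236 and Mir677. Mir8114 had medians of 1004 FPKM in TGAC8 and 1337 in WT, and Mir6236 had 901 and 944, with limma adjusted p of 0.72 and 0.917. Mir677, in an intron of the ATP synthase gene Atp5b, had a lowest value of 0, a median of 440 and a highest value of 791 FPKM in TGAC8 and 540, 1040 and 1812 in WT. All 8 TGAC8 values were under the WT median, with 49 fragments in TGAC8 and 116 in WT. Limma did not call it (log2 fold change -2.62, adjusted p = 0.176), whereas an exact rank-sum test adjusted over all rows did (adjusted p = 0.00973). Atp5b was not called (log2 fold change 0.03, adjusted p = 0.728).

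Of all Mir rows, 25 overlap an annotated exon, and these had a median log2 fold change of 1.02 against -0.02 for the 19 tested rows in introns or outside genes. At a pseudocount of 10 these medians were 0.38 and -0.09, and at either pseudocount they rest on few fragments. None of the exon-overlapping rows was called by limma or the rank-sum test, and 2 were higher at an unadjusted p under 0.05. An example is Mir22, in an exon of Mir22hg, which had medians of 44 FPKM in TGAC8 and 2.44 in WT on about 1.34 fragments per library (limma adjusted p = 0.146).

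The calls among host rows were all higher in TGAC8, in a share below the 20.9% of all rows tested. Snhg14, the long transcript of the imprinted region on chromosome 7 that hosts neuronal snoRNA clusters, was the only member whose genotypes did not overlap, beside 5.93% of all rows tested, or 4.79% with TGAC8 above WT. It had a lowest value of 0.652, a median of 0.833 and a highest value of 1 FPKM in TGAC8, against 0.389, 0.474 and 0.559 in WT. The log2 fold change was 0.70 (SE 0.119, limma adjusted p = 0.000366), and it was 0.60 on the geometric scale (adjusted p = 0.00154).

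Snhg15 and Mir99ahg were the other rows called higher. Snhg15 ran from 0.39 to 1.27 FPKM in TGAC8 (median 0.945) and from 0.179 to 0.918 in WT (median 0.508), with a log2 fold change of 0.81 (SE 0.278, limma adjusted p = 0.0394). Mir99ahg, host of a cluster with mir-99a, ran from 0.574 to 1 in TGAC8 (median 0.688) and from 0.283 to 0.912 in WT (median 0.426), with a log2 fold change of 0.62 (SE 0.184, adjusted p = 0.0204). Both calls were lost on the geometric scale (adjusted p = 0.0846 and 0.0609), and Snhg15 also without WT library 2 (adjusted p = 0.0758). The 3 rows called higher had means under 1 FPKM over the libraries.

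Snhg6, host of Snord87, and Gas5, a growth-arrest transcript whose introns carry many box C/D RNAs, lay just outside the threshold in the other direction. Snhg6 ran from 4.71 to 12.1 FPKM in TGAC8 (median 8.41) and from 8.67 to 14.6 in WT (median 11.4), with a log2 fold change of -0.44 (SE 0.162, limma adjusted p = 0.0576). Gas5 ran from 6.46 to 9.58 (median 7.7) against 7.98 to 11.4 (median 9.28), with a log2 fold change of -0.25 (SE 0.0911, adjusted p = 0.0502). Both were called lower on the geometric scale (adjusted p = 0.0128 and 0.00924), so the direction balance among hosts, 3 higher and 0 lower as deposited, became 1 higher and 2 lower.

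The remaining 12 host rows gave no call on either scale. Snhg12 had medians of 2.09 FPKM in TGAC8 and 1.55 in WT (log2 fold change 0.51, limma adjusted p = 0.0634). Snhg4 had medians of 0.815 and 0.473 (0.57, adjusted p = 0.155), and Snhg18 had 2.02 and 1.34 (0.47, adjusted p = 0.158). Snhg1 had 1.8 and 2.8 (-0.49, adjusted p = 0.272).

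Snhg9 varied most, from 2.81 to 73.9 FPKM in TGAC8 and from 0 to 51.9 in WT (log2 fold change 0.97, limma adjusted p = 0.518). Snhg3, Snhg5 and Mir22hg had fold changes of 0.39, 0.18 and 0.28. Snhg8, Snhg20, Mir1a-1hg and Mir133a-1hg, the last pair being hosts of the muscle microRNAs mir-1a and mir-133a, had fold changes of -0.12, -0.04, -0.27 and -0.09. Adjusted p for these 7 rows lay at 0.306 and above.

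**Figure D4:**
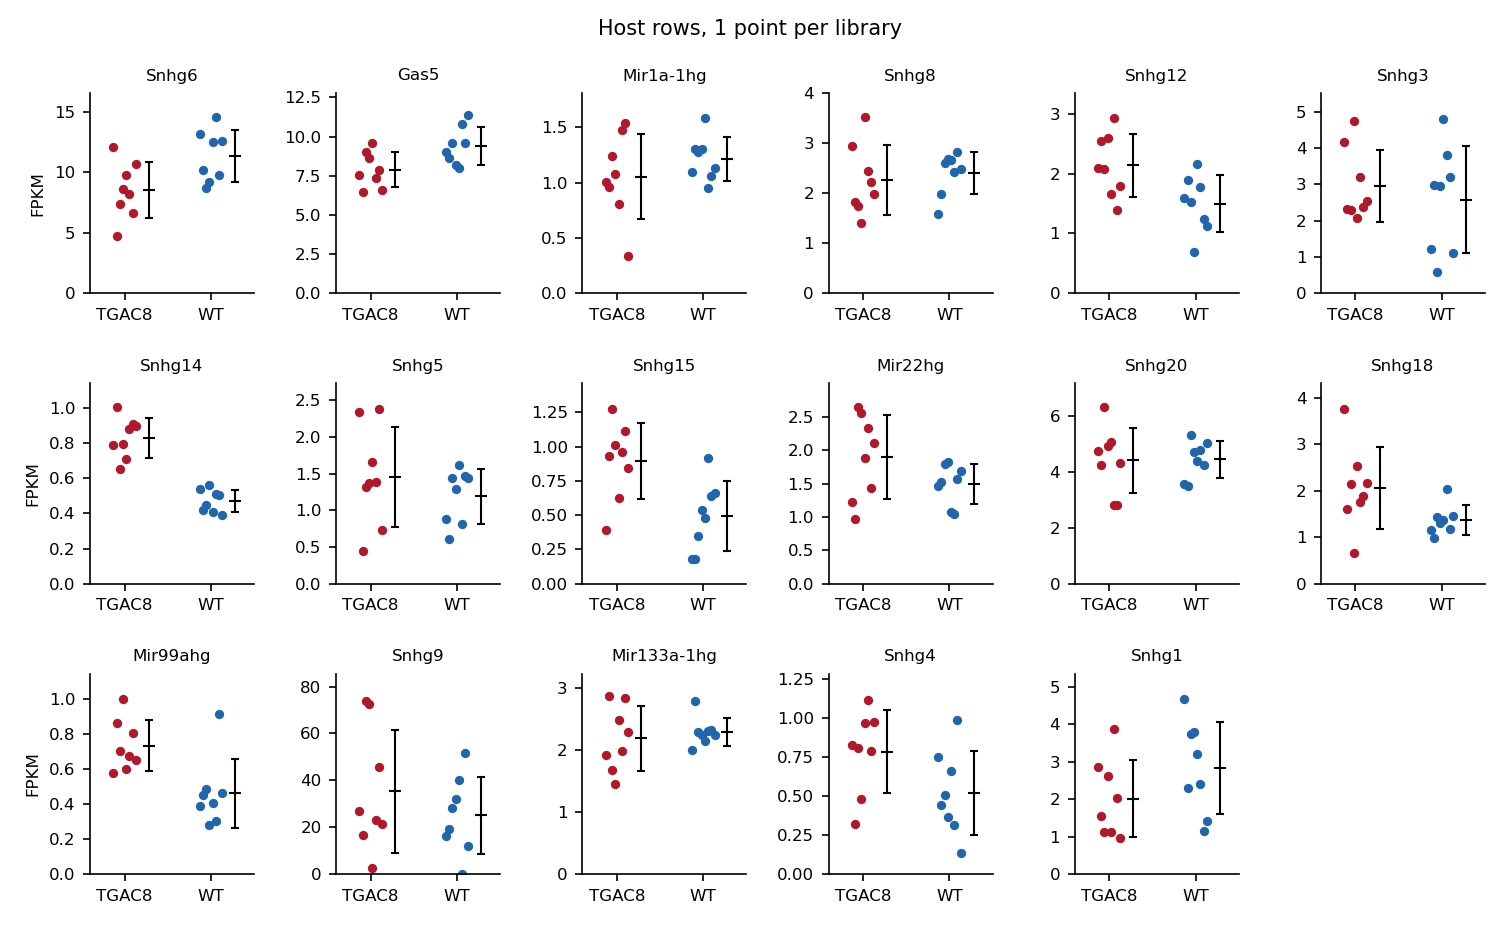
FPKM (y axis, linear from 0) of the 17 host rows, 1 point per library, TGAC8 in red and WT in blue, with the mean and SD to the right of each group. Snhg14 is the row whose points do not overlap, with TGAC8 from 0.652 and WT up to 0.559.

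The ratio of a small RNA row to its host within a library does not depend on the scale between libraries. It was tested for the 43 pairs, on 35 hosts, that share a locus in the table and were above 0.001 FPKM in all 16 libraries. The ratio was lower in TGAC8 in 38 pairs and higher in 5, with a median difference of -0.35 on the log2 scale. At an unadjusted p under 0.05, 12 pairs differed by the exact permutation test, and 1 passed adjustment over the 43 pairs.

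That pair was Snord100 in Rps12. The mean log2 ratio of Snord100 to Rps12 was 9.30 ± 0.182 in TGAC8 and 9.90 ± 0.275 in WT (SD, n = 8 each), a difference of -0.60 (exact permutation test, 2-sided, p = 0.000155, adjusted p = 0.00668). All 8 TGAC8 ratios were under the WT median. Rps12 itself was at 9.34 ± 0.835 FPKM in TGAC8 and 8.38 ± 0.619 in WT (SD, n = 8 each), which limma did not call (adjusted p = 0.077).

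All 15 pairs with ribosomal protein genes had a lower ratio in TGAC8, by -0.77 to -0.14 with a median of -0.43. The residents had a median log2 fold change of -0.33 and their 11 hosts of 0.02. Snord33, Snord34, Snord32a and Snord35a share the host Rpl13a, so their differences of -0.43 to -0.50 are not separate observations of it. The host of Snora52, Rplp2, was called lower on the geometric scale only (log2 fold change -0.21, limma adjusted p = 0.00148), and Rpl27a, host of Snora3, was called on neither scale.

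Of the 8 pairs with Snhg host rows, 7 had a lower ratio in TGAC8, with a median difference of -0.64. Snora74a to Snhg4 differed by -1.17 (exact permutation p = 0.00606, adjusted p = 0.0652) and Snora16a to Snhg12 by -1.06 (p = 0.00575, adjusted p = 0.0652). In these pairs the snoRNA was lower and the host value higher in TGAC8, with the host not called. Snord87 to Snhg6 was the smallest of the 7, with a difference of -0.07 (exact permutation p = 0.741), resident and host having fold changes of -0.52 and -0.44. The pair with a higher ratio was Snord22 to Snhg1, by 0.22 (exact permutation p = 0.616). Mir1291 to Kansl2 differed by -1.18 (exact permutation p = 0.00824, adjusted p = 0.0708), with Kansl2 called higher (log2 fold change 0.32, limma adjusted p = 0.00466).

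**Figure D5:**
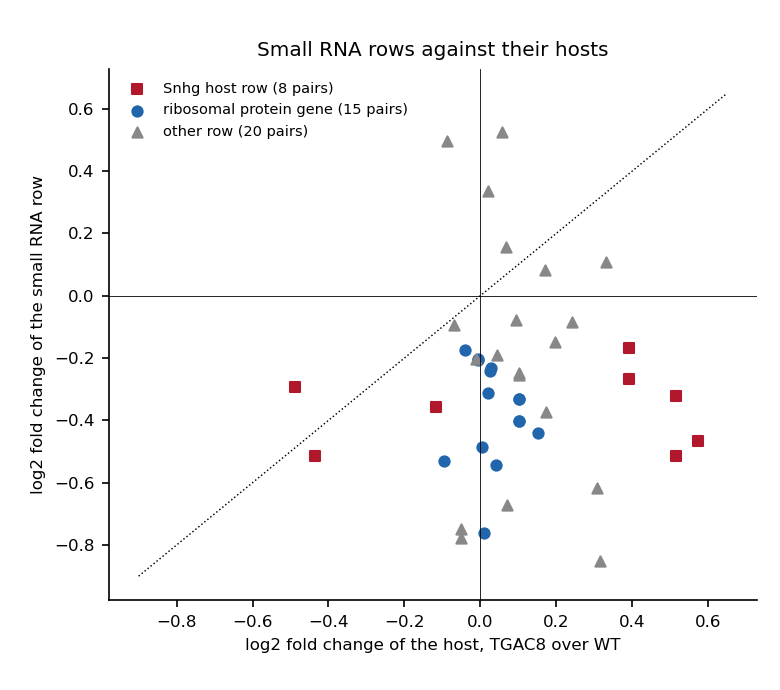
Log2 fold change of the small RNA row (y axis) against that of its host (x axis) for the 43 tested pairs, TGAC8 over WT, with the dotted line at equality. The 15 pairs in ribosomal protein genes (blue circles) all lie under the line, as do 7 of 8 pairs with Snhg host rows (red squares) by their ratio.

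Genes for the proteins of these particles gave few calls. Among 8 snoRNP core proteins tested, 1 was called, and it was higher, beside 20.9% of all rows called higher, with a median log2 fold change of -0.04. Nop56, a core protein of box C/D particles, was at 5.63 ± 0.584 FPKM in TGAC8 and 4.54 ± 0.461 in WT (SD, n = 8 each), a log2 fold change of 0.31 (limma adjusted p = 0.00626). It was not called on the geometric scale (adjusted p = 0.0557), where Nhp2l1 was called lower instead (-0.23, adjusted p = 0.0309), beside 10.8% of all rows. The list ran from Gar1 at -0.18 (adjusted p = 0.554) to Nhp2 at 0.35 (adjusted p = 0.0503), both core proteins of H/ACA particles.

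Of 14 snoRNP assembly and Cajal body genes 0 were called by limma, 0 by the rank-sum test and 1 passed an unadjusted p under 0.05, from Rpap3 at -0.15 (adjusted p = 0.254) to Coil at 0.37 (adjusted p = 0.112). On the geometric scale Rpap3 was called lower (-0.26, limma adjusted p = 0.0286). Of 13 U3 particle and small subunit processome genes 2 were called higher, beside 20.9% of all rows. They were Utp6 (log2 fold change 0.25, limma adjusted p = 0.00659) and Wdr75 (0.28, adjusted p = 0.035), and the lowest of the list was Nat10 at -0.11. Neither call held on the geometric scale (adjusted p = 0.0884 and 0.22), where Wdr43 was called lower (-0.21, adjusted p = 0.0154).

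Genes of intron release and exosome trimming, the steps that free and trim intronic snoRNAs, gave 3 higher and 1 lower of 16, near the 25.6% of all rows called in either direction. Exosc4 (log2 fold change 0.43, limma adjusted p = 0.0136), the deadenylase Parn (0.36, adjusted p = 0.0115) and the cap hypermethylase Tgs1 (0.23, adjusted p = 0.0428) were higher. The exosome subunit Exosc7 was lower (-0.40, adjusted p = 0.0189), and of these 4 calls Exosc7 alone held on the geometric scale (adjusted p = 0.00506). Of 9 minor spliceosome genes, Zcrb1 alone was called higher (0.31, adjusted p = 0.00504), beside 20.9% of all rows. The list ran from Scnm1 at -0.07 to Snrnp25 at 0.33.

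In nonsense-mediated decay, the pathway that degrades many spliced Snhg transcripts, 3 of 14 genes were called, each of them higher, near the 20.9% of all rows. They were Smg5 (log2 fold change 0.54, limma adjusted p = 0.000105), Smg6 (0.21, adjusted p = 0.00898) and Smg9 (0.74, adjusted p = 0.00145), and Smg8 was lowest at -0.13. Smg5 and Smg9 held on the geometric scale (adjusted p = 0.000336 and 0.00422) and Smg6 did not (adjusted p = 0.229), while Upf3b was called lower there (-0.23, adjusted p = 0.0484).

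Of 16 microRNA processing and Argonaute genes 4 were called higher, near the 20.9% of all rows. Ago2, which loads microRNAs, was at 4.92 ± 0.267 FPKM in TGAC8 and 4 ± 0.257 in WT (SD, n = 8 each) with no overlap, a log2 fold change of 0.29 (limma adjusted p = 0.000553) that held on the geometric scale (adjusted p = 0.0204). Tnrc6a (0.23), Ddx5 (0.19) and Ddx17 (0.28) were the others (adjusted p = 0.0205, 0.00889 and 0.00922), and their calls did not hold on that scale. Drosha, which cuts the primary transcript, was lowest at -0.10 and was called lower on the geometric scale only (adjusted p = 0.00447).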

How the data were processed

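RNA of the LV was sequenced from 8 TGAC8 and 8 WT mice, 1 library each. Libraries were made from total RNA with a stranded low-input kit, and according to the study's methods reads were trimmed and aligned with TopHat2 2.1.1 (the version in the submitters' processing notes) to mm10 joined to human ADCY8 cDNA. FPKM per library were made by the authors with Cufflinks 2.1.1, which scales fragments for transcript length and mapped fragments, and were deposited in 1 table. The sources used here do not name the annotation, the treatment of multi-mapped reads or the strand setting of the counting. The paper reports single-end reads, longer before trimming than several of these RNAs as RefSeq annotates them. The shortest is annotated at 48 bases, and the called rows Snord100, Snord104 and Snord87 at 68, 73 and 74 bases. Whether reads in small RNA rows, and so in the resident to host ratios, came from mature small RNAs or from unspliced or overlapping host RNA was not tested. The authors' Cuffdiff columns (group means, fold changes, test statistics, p and q values) were not used.

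The 11544 of 11811 rows whose mean reached 0.5 FPKM were fitted on log2(FPKM + 0.1) by limma 3.58.1 (R 4.3.3), 2-sided and with a trend of variance on level, and adjusted by Benjamini-Hochberg over all rows at 0.05. On this scale fold changes of low rows are understated, while in rows with zeros their size, and at times their sign, depends on the pseudocount. Resident to host ratios and the transgene were tested by exact permutation (scipy 1.17.1, numpy 2.4.6) over all 12870 divisions of the libraries, the ratios only where both rows were above 0.001 FPKM throughout. The fit was tested on simulated data. The paper gives a range of reads per library, but the depth of each library is unknown, and only relative steps of 1 fragment were read from the table. Sequences and positions are from GENCODE vM21 and RefSeq (GRCm38.p6).

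Members and lists were chosen with earlier results of these data known. Named rows were every called member, every host row, the 3 highest rows by mean FPKM per small RNA class, rows without overlap between genotypes, protein-coding hosts of called rows, rows whose zeros differ by 5 or more libraries (0 rows), and per list the called genes (up to 6) and those with the largest and smallest fold change at a mean of at least 1 FPKM. Rows named outside it (Snord66, Snord68, Snora2b, Snora34, Rnu73b, Mir680-2, Mir126a, Mir22, Mir29b-2, Mir29c, Egfl7, Atp5b, and the Rpl13a residents) were chosen after their values were seen. Alternatives were pseudocounts of 0.01, 1 and 10, quantile normalization, geometric scaling, no filter or a filter at a mean of 1 FPKM, an exact rank-sum test, the library number as a block, WT library 2 left out, and values under 0.001 FPKM set to 0. Same-numbered libraries are different mice. A host gene outside the members and some sequences are not reported here.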

Additional observations from a re-analysis of the deposited data

Results flagged for a closer look

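Among the class sums, the called rows and the host rows, 6 groups of 8 libraries held 1 value far from the others. Chance alone gives this in about 1 group of 20 where values are normally distributed. Each sum and row was examined in both genotypes, so some of the 6 can be due to chance. The rate does not hold for rows with many zeros, as Snora3 and Snord7. Snord55 in TGAC8 had 1 library at 2062 FPKM, under the other 7. Snora3 in WT had 1 library at 98 FPKM with 4 others at 0, and Snord7 in TGAC8 had 1 at 106 FPKM with 5 others at 0. Mir99ahg in WT had 1 library at 0.912 FPKM, inside the TGAC8 range. Snhg18 and Mir133a-1hg in WT had highest values of 2.05 and 2.8 FPKM. None of the class sums held such a value.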

How the results depend on the processing

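As reported, 17 members were called, 14 small RNA rows lower and 3 host rows higher, and the small RNA rows called lower were between 12 and 17 under 9 of 12 alternatives. The share of all rows called lower moved as well. The 16 with geometric scaling are 11.5% beside 10.8% of all rows, against 10.1% beside 4.65% as reported. At a mean of 10 to 965 FPKM, 7.55% of small RNA rows were called lower on either scale. Rows outside the rule in that range gave 24.9% with geometric scaling and 9.17% as reported. The exceptions were quantile normalization with 2 (5 members in all), the exact rank-sum test with 9 (11 members in all) and leaving out WT library 2 with 9. Small RNA rows called higher were 0 by limma, and 1, Snora2b, without WT library 2 and with the replicate block. Host rows called higher fell to 0 at a mean of at least 1 FPKM, where none of the 3 is tested, and to 1, Snhg14, with geometric scaling, with quantile normalization and with geometric scaling at a pseudocount of 10, an alternative chosen after seeing the data. Host rows called lower were 1 at a mean of at least 1 FPKM and with the replicate block, and 2 under the other 3 of these settings. With a pseudocount of 1, 2 resident to host pairs passed, the second being Snora74a in Snhg4. Mir8114 and Mir6236 turned to 0.20 and 0.18 under quantile normalization, and Mir6236 to 0.016 in the rank-sum comparison. The cause of these changes was not tested.

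Library numbers did not pair the mice: same-numbered libraries had correlations of deviations of -0.0617 to 0.00672, and no TGAC8 library was closest to its own number. With the replicate block 17 members were called, 12 small RNA rows lower. Rows with few fragments, 57 of 132 under 2 per library, can show neither a difference nor its absence.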
